A study of Mus musculus with 15 samples.

Results

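Sox10, S100b, Ret, Nos1, Chat, Vip, Cartpt and Hand2 are 8 genes of the enteric nervous system, the network of neurons and glia inside the wall of the gut. They were taken by symbol from the 36144 genes of the count table, and all 8 were found. The list of symbols was drawn up with earlier results of these data known.

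Enteric neurons and glia descend from neural crest cells that migrate into the gut and settle in plexuses between and beside the muscle layers. Migrating progenitors need SOX10, the receptor tyrosine kinase RET and endothelin signaling. Mature neurons relax the muscle through nitric oxide, made by NOS1, and the peptide VIP, and contract it through acetylcholine, made by CHAT, and tachykinins. In the stomach they also steer acid secretion, blood flow and emptying.

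Bulk RNA was sequenced from 15 pieces of mouse stomach: 3 of normal tissue and 3 tumors from each of 4 sites, the antrum, the corpus, and the boundaries of the greater and of the lesser curvature of the cardia, the part of the stomach next to the esophagus. The last 2 sites are called greater curvature and lesser curvature here. All mice were C57BL/6, 7 to 8 weeks old, and all 5 groups, the normal one included, bear the same genotype label: Pou2f3-CreERT with floxed Rb1 (Rb1fl/fl), floxed Trp53 (Trp53fl/fl) and a Cre-dependent Myc allele (LSL-MycT58A). All groups also share the treatment, intraperitoneal tamoxifen at 50 mg/kg, and the time of 5 weeks. Pou2f3 marks tuft cells, a chemosensory epithelial type, so Cre is driven from that gene and not from nerve cells. The stomach region of the normal tissue is not stated, so region and tumor cannot be told apart in comparisons with it. The labels call replicates biological but do not say whether each is a separate animal, so p-values measure the spread between these samples only.

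Library totals ran from 7957165 counts (lesser curvature tumor 2) to 21564972 (greater curvature tumor 2). On the first principal component of all genes, 46.9% of the variance, greater curvature tumor 2 and corpus tumor 1 lay among the normal libraries, so calls were also made without these 2. Levels are given as CPM, counts in each 1000000 of a library size scaled by the TMM method. At 3 counts, the lowest level treated here as measured, the CPM was 0.143 in the most favourable library and 0.336 in the shallowest, lesser curvature tumor 2. That floor covers counting error only. Summed CPM of 6 epithelial genes was 3799 to 11851 in normal tissue and 160.1 to 10628 in tumors, and that of 11 smooth muscle genes was 4643 to 6542 and 194.1 to 1194.

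Promoter sequences are shown for the 3 members that carry TGACGT, the core of the cyclic AMP response element, since that element is a textbook feature of the Vip gene. The choice was made with the results known. RefSeq (GRCm38.p6) gave promoters for 6 of the 8 members. The 250 bases before each start were searched on both strands for TGACGT and for the full palindrome TGACGTCA, which holds TGACGT on both strands. Vip lies at chr10:5638968-5639217 on the plus strand, Cartpt at chr13:99900684-99900933 on the minus strand, and Chat at chr14:32465910-32466159 on the minus strand. Each sequence reads 5′ to 3′ toward its gene, with the match in capitals.
Vip: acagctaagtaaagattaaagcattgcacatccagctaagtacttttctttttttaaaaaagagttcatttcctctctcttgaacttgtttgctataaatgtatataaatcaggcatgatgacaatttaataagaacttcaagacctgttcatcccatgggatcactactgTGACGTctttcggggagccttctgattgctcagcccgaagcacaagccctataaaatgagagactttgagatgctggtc
Cartpt: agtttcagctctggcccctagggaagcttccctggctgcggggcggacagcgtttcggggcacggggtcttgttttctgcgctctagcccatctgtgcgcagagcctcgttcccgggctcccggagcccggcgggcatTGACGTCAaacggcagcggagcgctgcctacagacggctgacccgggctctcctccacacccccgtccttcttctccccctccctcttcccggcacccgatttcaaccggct
Chat: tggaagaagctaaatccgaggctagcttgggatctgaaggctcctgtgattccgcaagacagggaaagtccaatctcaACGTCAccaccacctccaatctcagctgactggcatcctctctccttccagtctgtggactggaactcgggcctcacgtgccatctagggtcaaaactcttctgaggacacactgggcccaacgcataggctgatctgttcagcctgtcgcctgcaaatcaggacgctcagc
The match began 79 bases before the start in Vip, 112 bases before it in Cartpt, where it formed the full palindrome, and 172 bases before it in Chat, where it read on the opposite strand. S100b, Nos1 and Hand2 held no TGACGT in this window. The Nos1 window, at chr5:117866589-117866838, lay inside the gene span of 117781032 to 117958840 given below. It therefore precedes a start within the gene, and the bases before that span were not searched. The Cartpt window also lay inside its gene span. Of 32851 promoters searched over the same length, 6.47% held TGACGT and 1.55% held TGACGTCA. A match is a run of letters and not a measured binding site. In the comparison below, Vip and Cartpt fell with a match and Nos1 and Hand2 without one. Chat, with a match, and S100b, without one, were not called. A part of the element in these values was not tested.

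Compared with normal stomach, 6 of the 8 genes fell over the 12 tumors and none rose. Hand2, Vip, Cartpt and Sox10 fell most, with log2 changes from -4.75 to -3.47, Nos1 fell by 2.05 and Ret fell by 1.42, and S100b and Chat did not pass the test. Called means an adjusted p under 0.05 in edgeR's quasi-likelihood test, with Benjamini-Hochberg adjustment over all 16224 genes tested. In the same comparison 15.7% of the tested genes were lower and 16.2% higher. The median log2 change was -2.76 over the 8 members and -0.04 over all tested genes. All 8 passed the filter on low counts, but Sox10 passed only through the normal libraries and Chat only through 4 tumors. The differences of both were therefore partly fixed by the filter. In 4 members, Sox10, Vip, Cartpt and Hand2, all 12 tumors lay below all 3 normal libraries, as they did in 6.65% of tested genes. Without any filter the Sox10 log2 change was -3.46 (edgeR adjusted p = 0.00181). Without greater curvature tumor 2 and corpus tumor 1 the same 6 members were called, and 3648 of 16577 tested genes were lower. In bulk tissue, fewer cells of a type and less RNA per cell cannot be told apart.

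**Figure D1:**
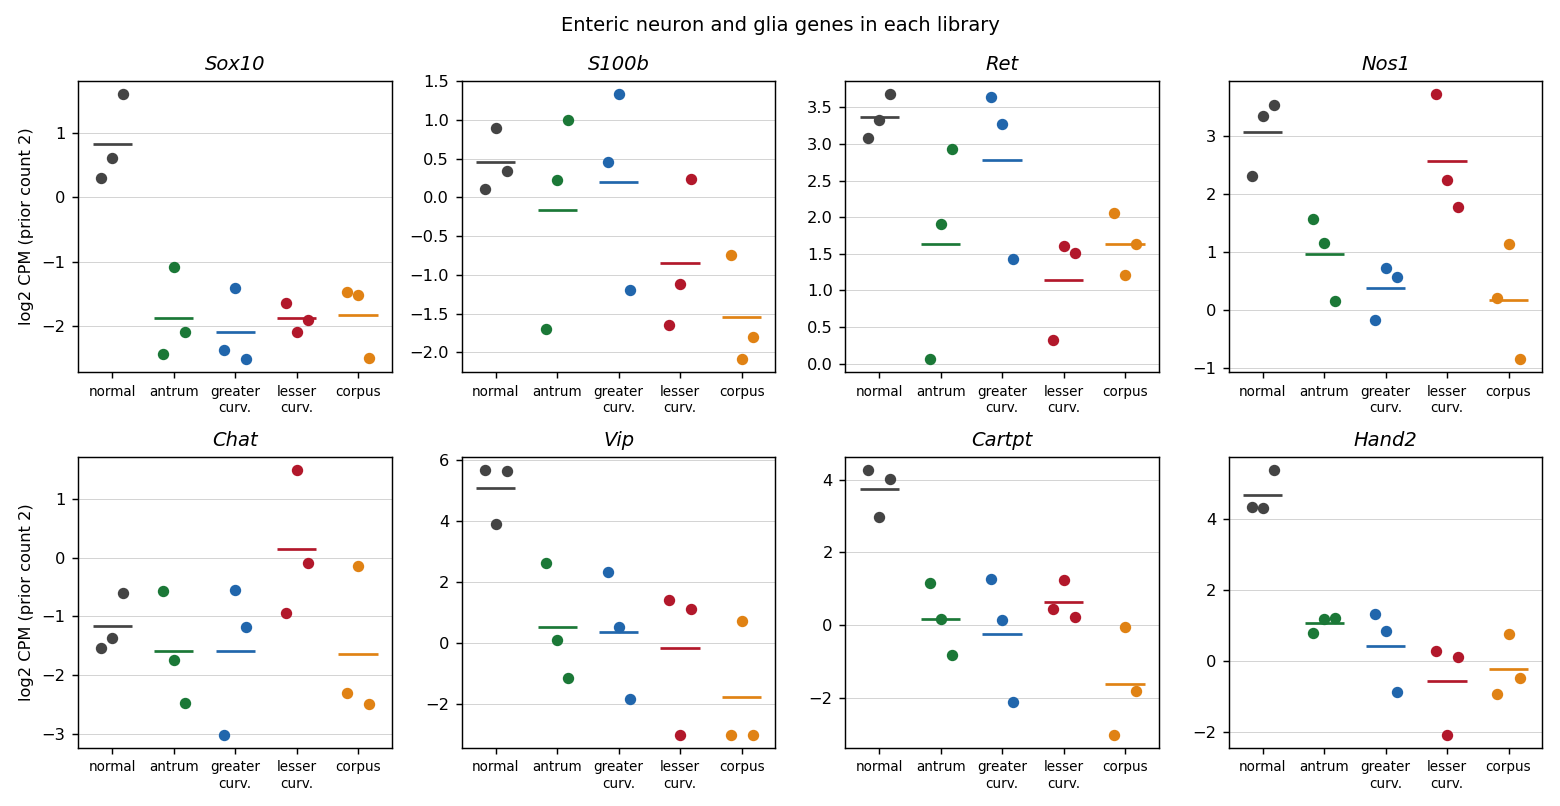
Level of each of the 8 genes in each of the 15 libraries, as log2 CPM with a prior count of 2. Points are libraries and horizontal lines are group means (n = 3). In Sox10, Vip, Cartpt and Hand2 all 12 tumors lie below all 3 normal libraries, while in S100b and Chat the groups overlap.

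Levels per transcript length in the normal tissue were compared in TPM, each library’s transcripts scaled to a sum of 1000000. Vip had 10.1 to 34.8 TPM, Cartpt 8.64 to 20.8 and Hand2 8.52 to 18.2, and these 3 ranges overlap. Ret, at 1.58 to 2.43 TPM, lay below them. S100b (0.671 to 1.25 TPM), Nos1 (0.479 to 1.11 TPM) and Sox10 (0.402 to 1.09 TPM) overlapped one another, and Chat was lowest at 0.0761 to 0.190 TPM. In the tumors the 4 highest medians were 1.32 TPM for Cartpt, 1.02 for Vip, 0.937 for Ret and 0.872 for Hand2, with ranges that overlap.

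The first of the glial genes, Sox10, on chromosome 15 (79154908 to 79165240, minus strand, GRCm38), encodes the transcription factor that maintains enteric glia and their progenitors. Its level was 1.10, 1.40 and 2.91 CPM in the 3 normal libraries. Among the tumors, those of the antrum had 0.0615, 0.350 and 0.110 CPM, the greater curvature tumors 0.0697, 0.255 and 0.0524, the lesser curvature tumors 0.197, 0.112 and 0.143, and the corpus tumors 0.237, 0.224 and 0.0541. All 12 tumors were below every normal library, each with between 1 and 6 counts. Antrum tumors 1 and 3, greater curvature tumors 1 and 3, lesser curvature tumor 2 and corpus tumor 3 were under the floor of 3 counts. The log2 change was -3.47 (SE 0.49, edgeR adjusted p = 0.00151), and the tumor mean was 8.63% of the normal mean.

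S100b, on chromosome 10 (76253853 to 76261159, plus strand), encodes a calcium-binding protein used to stain enteric glia. Normal tissue had 0.955, 1.74 and 1.15 CPM. Antrum tumors had 0.184, 1.05 and 1.87 CPM, the greater curvature tumors 1.25, 2.39 and 0.314, the lesser curvature tumors 0.197, 0.336 and 1.05, and the corpus tumors 0.474, 0.112 and 0.162. Of the tumors, 7 lay below all normal libraries, 3 among them and 2 above them, the latter being antrum tumor 3 and greater curvature tumor 2. Corpus tumor 2, with 2 counts, was under the floor of 3 counts. The log2 difference of -0.97 had a 95% interval from -2.43 to 0.50 (edgeR adjusted p = 0.270).

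Other glial genes were read from a separate list of 12, of which 10 could be tested. Of these 4 fell, none rose and 6 did not pass, with a median log2 change of -1.35. Scn7a, a sodium channel gene of non-myelinating glia, fell from a mean of 20.4 to 4.18 CPM (log2 change -2.29, SE 0.25, edgeR adjusted p = 0.00053). Lgi4, which encodes a secreted glial signal, fell by 2.47 and the glial cadherin gene Cdh19 by 4.36 on the log2 scale, both with all 12 tumors below all normal libraries. Like Sox10, Cdh19 passed the filter on low counts through the normal libraries alone, with no tumor over 0.608 CPM, and without any filter its log2 change was -4.34 (adjusted p = 0.00161). Entpd2, an ATP-splitting enzyme of enteric glia, fell by 1.34 (edgeR adjusted p = 0.0122), a call lost without normal replicate 3 (adjusted p = 0.0655). Of 4 tested genes of myelinating Schwann cells, Mbp fell by 0.56 and Pmp22 by 1.12 on the log2 scale, while Egr2 (0.58, adjusted p = 0.389) and Prx (-0.19, adjusted p = 0.622) did not pass. The Pmp22 call (edgeR adjusted p = 0.0291) was lost without any 1 of the 3 normal libraries. On the log2(TPM + 1) scale neither passed, and Mbp differed there by -0.075 (limma adjusted p = 0.678).

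Ret, on chromosome 6 (118151745 to 118197718, minus strand), encodes the receptor through which GDNF acts on enteric progenitors and neurons. Normal tissue had 8.38, 9.94 and 12.7 CPM. Tumors of the antrum had 0.922, 3.61 and 7.49 CPM, the greater curvature tumors 12.3, 9.58 and 2.57, the lesser curvature tumors 1.13, 2.91 and 2.72, and the corpus tumors 4.03, 2.187 and 2.97. Greater curvature tumors 1 and 2 lay among the normal libraries and the other 10 tumors below them. The log2 change was -1.42 (SE 0.50, edgeR adjusted p = 0.0471). The call was lost when any 1 of 9 libraries was left out, among them each normal library, with an adjusted p of up to 0.168.

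Of 9 genes of GDNF and endothelin signaling, 3 fell and none rose, with a median log2 change of -0.51. The endothelin receptor gene Ednrb fell by 0.94 (edgeR adjusted p = 0.0108), its ligand gene Edn3 by 3.23 (0.0161) and Gdnf, which encodes a ligand of the RET complex, by 2.08 (0.0293) on the log2 scale. These 3 calls were each lost without normal replicate 2, with adjusted p-values of 0.0805, 0.0823 and 0.0927, and those of Edn3 and Gdnf also without normal replicate 3 (0.0630 and 0.164). On the filtered log2(TPM + 1) scale none of the list passed, and Ednrb differed there by -0.25 (limma adjusted p = 0.315). The neurturin co-receptor gene Gfra2 differed by -0.72 (adjusted p = 0.108).

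Inhibitory transmission was represented by Nos1, Vip and Cartpt. Nos1, on chromosome 5 (117781032 to 117958840, plus strand), encodes neuronal nitric oxide synthase. Normal tissue had 4.85, 10.03 and 11.5 CPM. The antrum tumors had 2.83, 2.10 and 0.991 CPM, the greater curvature tumors 0.766, 1.53 and 1.36, and the corpus tumors 1.03, 2.08 and 0.433. The lesser curvature tumors had 13.1, 4.59 and 3.30 CPM, so that the first of them was above every normal library. The other 11 tumors were below all 3 normal libraries in CPM, whereas in TPM 9 were below them and 2 among them. The log2 change over all tumors was -2.05 (SE 0.46, edgeR adjusted p = 0.00816). On the log2(TPM + 1) scale without a filter the difference was -0.42 and did not pass (limma adjusted p = 0.184).

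Vip, on chromosome 10 (5639218 to 5647617, plus strand), encodes vasoactive intestinal peptide, which relaxes gut muscle. Normal tissue had 51.4, 14.7 and 50.2 CPM. Among the tumors, those of the antrum had 6.09, 0.932 and 0.330 CPM, the greater curvature tumors 4.95, 1.32 and 0.157, and the lesser curvature tumors 2.51, 0 and 2.05. In the corpus tumors it was 0, 1.51 and 0 CPM. The 3 libraries with no count, lesser curvature tumor 2 and corpus tumors 1 and 3, allow levels of up to 0.336, 0.237 and 0.162 CPM. All 12 tumors were below every normal library although the normal libraries themselves spanned 3.48-fold. The log2 change was -4.75 (SE 1.02, edgeR adjusted p = 0.00697), and the tumor mean was 4.27% of the normal mean.

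Cartpt, on chromosome 13 (99898489 to 99901091, minus strand), encodes the CART peptide, found in enteric neurons and also in some endocrine cells. Normal tissue had 19.1, 7.68 and 16.0 CPM. Antrum tumors had 2.09, 0.991 and 0.4405 CPM, the greater curvature tumors 2.30, 0.968 and 0.105, the lesser curvature tumors 1.23, 2.24 and 1.05, and the corpus tumors 0, 0.841 and 0.162. No tumor reached the lowest normal library, and normal replicate 2 was the lowest of its group for both peptides. Greater curvature tumor 3, with 2 counts, and corpus tumor 1, with 0, were under the floor of 3 counts. The log2 change was -3.97 (SE 0.68, edgeR adjusted p = 0.00305).

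Of 9 tested genes of inhibitory motor transmission, 3 fell and none rose, with a median log2 change of -0.88. Vipr2, the VIP receptor gene of gut muscle, fell from a mean of 14.4 to 2.002 CPM (log2 change -2.89, SE 0.32, edgeR adjusted p = 0.00063). The neuropeptide gene Gal fell by 3.50 (adjusted p = 0.0109, or 0.0561 without normal replicate 1). Prkg1, the kinase gene through which nitric oxide relaxes muscle, fell by 1.21 (adjusted p = 0.0190, or 0.0865 without normal replicate 2 and 0.0687 without normal replicate 3). Npy, a further neuropeptide gene, differed by -1.74 (adjusted p = 0.125).

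Chat, on chromosome 14 (32408203 to 32465989, minus strand), encodes the enzyme that makes acetylcholine, in neurons and also in tuft cells. It was near the counting floor in normal tissue, with 0.220, 0.262 and 0.535 CPM from 3, 3 and 7 counts. Chat passed the filter on low counts through tumors alone, with no normal library over 0.608 CPM. Tumors of the antrum had 0.553, 0.175 and 0.0551 CPM, the greater curvature tumors 0, 0.560 and 0.314, the lesser curvature tumors 0.393, 2.69 and 0.812, and the corpus tumors 0.0791, 0.785 and 0.0541. Of the tumors, 5 lay below all normal libraries, 5 above them and 2 among them, and the highest level was in lesser curvature tumor 2, the shallowest library. Antrum tumor 3, greater curvature tumor 1 and corpus tumors 1 and 3 had 1, 0, 1 and 1 counts. Their place below the normal libraries thus rests on counts under the floor of 3. The log2 difference was 0.30 (95% interval -1.87 to 2.47, edgeR adjusted p = 0.830), so that no difference was detectable at this depth. Slc18a3, the vesicular acetylcholine transporter gene that lies within Chat on the same strand, was named after its values were seen and differed by 0.03 (adjusted p = 0.982).

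Of 12 other genes of cholinergic and excitatory transmission 7 fell, none rose and 5 did not pass, with a median log2 change of -2.01. The choline transporter gene Slc5a7, which supplies acetylcholine synthesis in neurons, fell from 2.80 to 0.280 CPM (log2 change -3.38, SE 0.51, edgeR adjusted p = 0.00208), although only 1 tumor was over the 0.608 CPM of the filter, which it passed through the normal libraries. Chrm2, a muscarinic receptor gene of gut muscle, fell from 32.8 to 2.38 CPM (log2 change -3.84, adjusted p = 0.00071). Tacr2, a tachykinin receptor gene of gut muscle, fell by 5.24 (adjusted p = 0.0008) and the nicotinic receptor subunit gene Chrnb4 by 2.45 (adjusted p = 0.00222) on the log2 scale. In each of these 4 genes all 12 tumors lay below all 3 normal libraries. Tuft cells, another source of Chat transcripts, are marked by 9 listed genes whose summed CPM was 160.7 to 541.7 in normal tissue and 57.1 to 429.6 in tumors. Of the 8 tested 1 fell, Ptgs1, and 1 rose, Dclk1, a call lost without lesser curvature 3, greater curvature 3, antrum 3, normal 1 or normal 3, and their part in the Chat values was not tested.

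Hand2, on chromosome 8 (57320983 to 57324633, plus strand), encodes a transcription factor needed for enteric neuron differentiation and also present in gut mesenchyme. Normal tissue had 20.1, 19.6 and 41.7 CPM. The antrum tumors had 1.60, 2.16 and 2.20 CPM, the greater curvature tumors 2.37, 1.68 and 0.419, the lesser curvature tumors 1.08, 0.112 and 0.955, and the corpus tumors 0.395, 1.57 and 0.595. The highest tumor level lay well under the lowest normal one. The log2 change was -4.52 (SE 0.48, edgeR adjusted p = 0.00053), and the tumor mean was 4.65% of the normal mean. Exons of the antisense gene Hand2os1 overlap Hand2, and no source used here says whether counting used strand, so reads of the pair cannot be told apart.

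Of 7 other tested regulators of enteric neurons reported here, 1 fell, 1 rose and 5 did not pass, and Hand1 had no count in any library. Hoxb5, a homeobox gene of the migrating progenitors, fell by 1.78 (edgeR adjusted p = 0.00457), with all 12 tumors below all normal libraries. Zeb2, a transcription factor gene needed for neural crest formation, rose by 0.79 (adjusted p = 0.0383). The Zeb2 call was lost without any 1 of normal 1, 2 or 3, lesser curvature 3, corpus 2 or corpus 3, with adjusted p-values from 0.0589 to 0.144. Satb1 differed by 1.25 (adjusted p = 0.194).

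Of 14 pan-neuronal genes, shared by neurons in general, none fell and 2 rose, with a median log2 change of 2.27. Over all tested genes 15.7% fell and 16.2% rose. Stmn3, a tubulin-binding protein gene, rose by 2.60 (edgeR adjusted p = 0.0443) and Elavl4, a neuronal RNA-binding protein gene, by 2.87 (0.0475). The first call was lost in 11 and the second in 12 of the 15 fits that left out 1 library. The count of genes that rose in this list was 9 with DESeq2, 9 without greater curvature tumor 2, 4 without corpus tumor 1, 6 with limma on log2(TPM + 1), 0 with no filter and 0 without any 1 of the 3 normal libraries. Of all genes, 3566 of 36144, 3395 of 16596, 2866 of 16655, 5749 of 15395 and 2309 of 24165 rose in the first 5 of these fits. Without normal 1, 2 or 3, 1781 of 16588, 1352 of 16611 and 1145 of 16629 rose. The neurofilament gene Nefm differed by 3.22 (adjusted p = 0.0641) and Uchl1 by 2.21 (0.0755). Summed CPM of the 14 genes was 67.4 to 139.4 in normal tissue and 25.3 to 1100 in tumors. Greater curvature tumor 2 and corpus tumor 1 had 25.3 and 50.6 CPM, and the other 10 tumors 217.5 CPM or more. The 8 members summed to 65.4 to 136.7 CPM in normal tissue and 4.43 to 24.0 in tumors, also in the libraries where pan-neuronal genes were highest: greater curvature tumor 3, with 1100 CPM of pan-neuronal genes, had 5.29 CPM of the members.

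**Figure D2:**
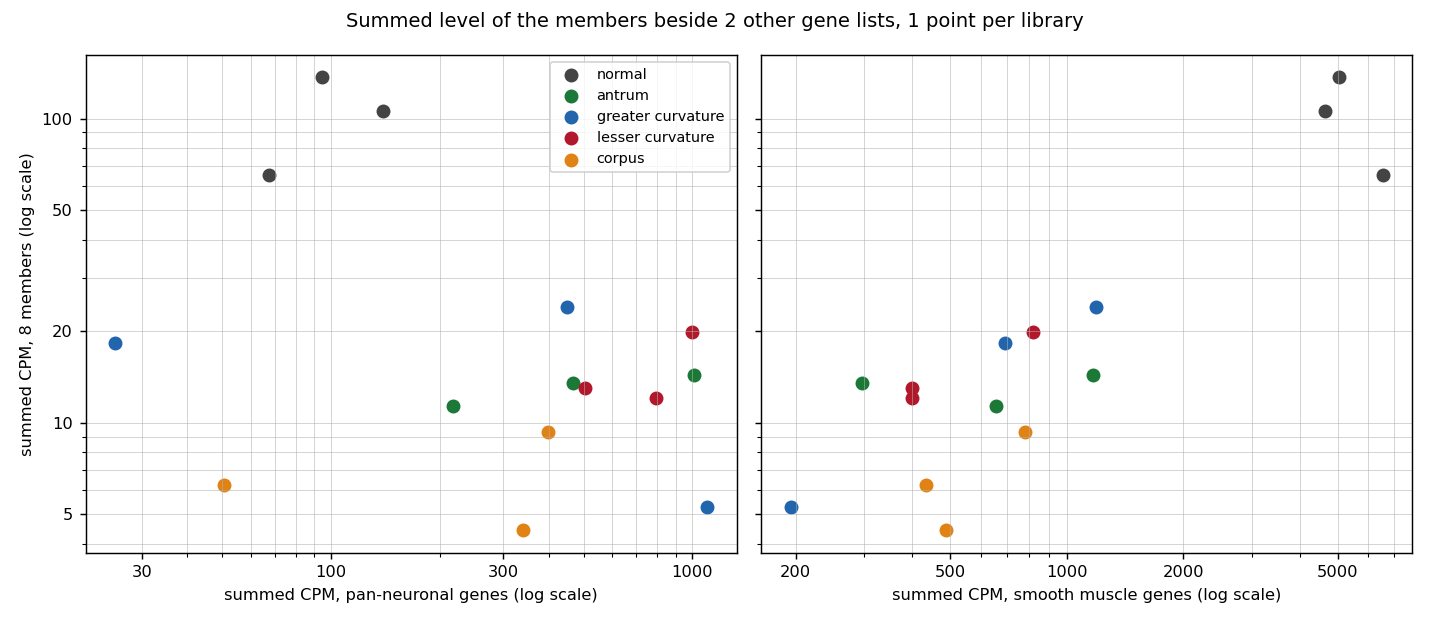
Summed CPM of the 8 members (vertical, log scale) against summed CPM of 14 pan-neuronal genes (left) and of 11 smooth muscle genes (right, both log scales), with 1 point per library coloured by group. The 3 normal libraries lie above 65 CPM of the members and all 12 tumors at 24.0 CPM or less, while on the left the tumors spread from 25.3 to 1100 CPM of pan-neuronal genes.

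Neuroendocrine cells also use many pan-neuronal genes. Summed CPM of 9 neuroendocrine genes was 283.2 to 1258 in normal tissue and 239.9 to 5538 in tumors. Of these 9 genes only Ddc, which encodes an enzyme of amine synthesis, passed the test, rising by 2.96 on the log2 scale (edgeR adjusted p = 0.0310), and Syp differed by 1.85 (0.0586), Insm1 by 2.80 (0.0732) and Pcsk1 by -1.24 (0.0644). None of the 9 was called higher without any 1 of the 3 normal libraries, and 4 were with DESeq2, with limma on log2(TPM + 1) or without greater curvature tumor 2. The counts of all genes that rose in those fits are given above with the pan-neuronal list. The part of these cells in the pan-neuronal values was not tested.

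**Figure D3:**
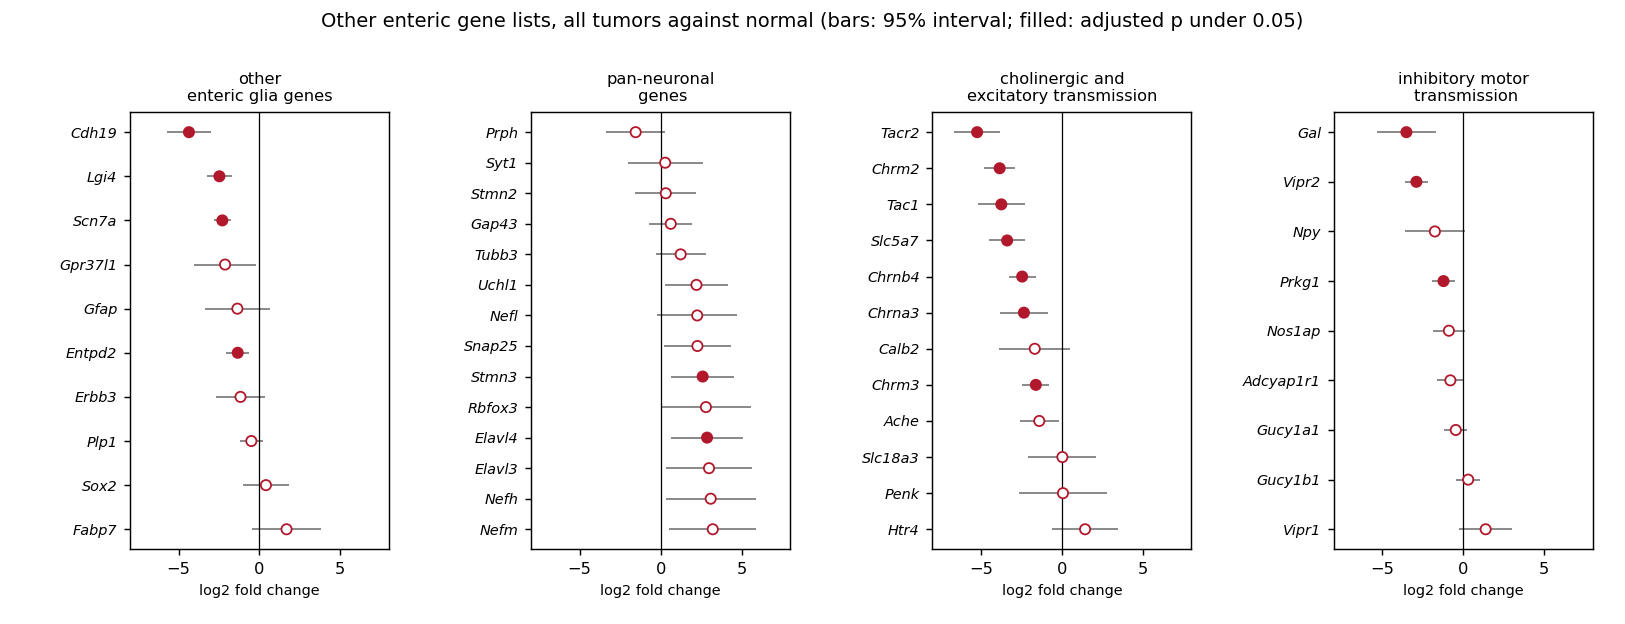
Log2 fold changes of all tumors against normal tissue for the tested genes of 4 other lists (horizontal), with 95% intervals as bars and filled points where the edgeR adjusted p was under 0.05. The glial, cholinergic and inhibitory lists hold 4, 7 and 3 filled points, all below 0, and the pan-neuronal list 2, both above 0.

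Muscle surrounds the plexuses, and all 11 smooth muscle genes fell, with log2 changes from -5.68 (Pln) to -2.27 (Smtn) and a median of -3.09. The summed CPM of these genes did not overlap between normal tissue and tumors. Interstitial pacemaker cells, which sit beside enteric nerves, showed no call in either direction among 5 genes (edgeR, none with an unadjusted p under 0.05), with summed CPM of 177.7 to 235.9 in normal tissue and 150.8 to 279.8 in tumors. Of 7 fibroblast genes 2 rose, and their summed CPM was 663.5 to 991.7 in normal tissue and 679.4 to 6787 in tumors. Of 2 tested adipocyte genes 1 fell, with summed CPM over the list of 90.9 to 121.1 and 20.9 to 78.9. Melanocytes, a SOX10-positive lineage, had summed CPM of 12.2 to 26.9 in normal tissue and 4.86 to 17.6 in tumors, and 1 of 4 tested genes fell. The adipocyte call was lost without any 1 normal library, and the melanocyte call in 10 of the 15 fits that left out 1 library, each normal one included. The part of these cell types in the members' values was not tested.

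Members were also set against the muscle within each library, as log2 CPM minus the mean log2 CPM of the 11 smooth muscle genes. This is a description with no test, and the prior count of 2 holds up the tumor values of genes with few or no counts there. That bears on Sox10, S100b and Chat, on Vip and Cartpt with 3 and 1 tumors at 0 counts, and on Hand2 with 1 count in lesser curvature tumor 2. The muscle mean itself was 3.05 to 5.70 in tumors and 7.87 to 8.36 in normal tissue, a difference of -3.43 between the means. A gene with the same log2 CPM in both is therefore higher in tumors on this scale by as much. The share of all genes above or below the normal libraries on this scale was not counted. The counts of tumors that follow therefore do not set the members apart from other genes. Relative to the muscle mean, Ret was higher in tumors by 1.86 and Nos1 by 1.38 on the log2 scale, each with 10 of 12 tumors above all normal libraries. Cartpt differed by -0.58, with 9 tumors within the normal range. Hand2 differed by -1.07, with 9 tumors below all normal libraries, and Vip by -1.91, with 8 below. S100b differed by 2.39 and Chat by 3.43, each with 12 tumors above all normal libraries, and Sox10 by 0.68, with 7 above.

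By site, Sox10 and Hand2 were called lower than normal tissue at all 4 sites. For Sox10, which passed the filter only through the normal libraries, the corpus call was lost with no filter (log2 difference -3.35, edgeR adjusted p = 0.0540). In the antrum 3 members fell, Cartpt, Hand2 and Sox10, against 5.08% of all tested genes. In the greater curvature 3 fell, Hand2, Nos1 and Sox10, against 2.76%. In the lesser curvature 4 fell, Cartpt, Hand2, Ret and Sox10, against 15.3%, and in the corpus 4 fell, Cartpt, Hand2, Nos1 and Sox10, against 1.19%. No member rose at any site, where 9.59%, 6.50%, 18.2% and 2.35% of genes did. Without greater curvature tumor 2 and corpus tumor 1, 3, 4, 4 and 3 members were called in the same order of sites. In that fit 1184, 1642, 2888 and 401 of 16577 tested genes were lower. The comparisons share their 3 normal libraries.

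**Figure D4:**
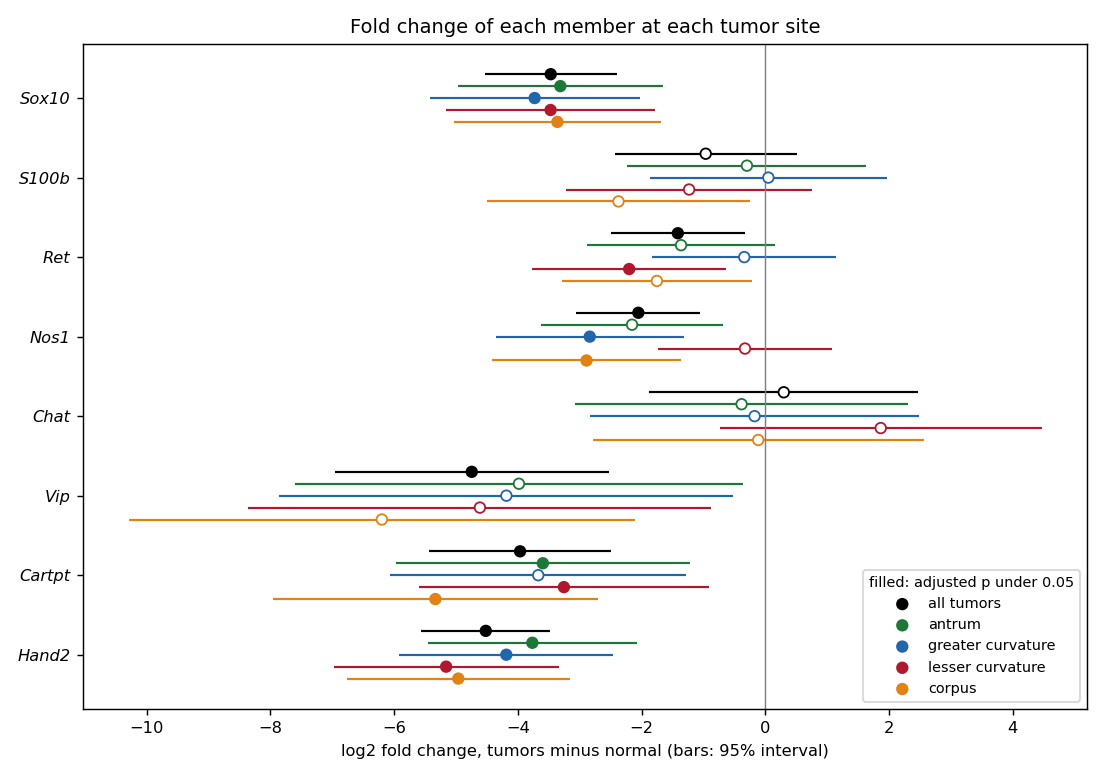
Log2 fold change of each member against normal tissue (horizontal) for all 12 tumors and for each site of 3 tumors, with 95% intervals as bars and filled points where the edgeR adjusted p was under 0.05. Sox10 and Hand2 are filled throughout, and Nos1 in the lesser curvature sits at -0.33 while at the other sites it is at -2.16 or lower.

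Sox10 had log2 changes from -3.73 in the greater curvature (95% interval -5.43 to -2.03) to -3.32 in the antrum (-4.97 to -1.66), from 1 to 6 counts per tumor. Hand2 ran from -5.16 in the lesser curvature (edgeR adjusted p = 0.00364) to -3.77 in the antrum (0.0154). Vip did not pass at any single site, with log2 differences of -3.98 in the antrum (adjusted p = 0.115), -4.19 in the greater curvature (0.115), -4.61 in the lesser curvature (0.0557) and -6.20 in the corpus (0.0833). Cartpt was at -5.34 in the corpus (0.0403), -3.60 in the antrum (0.0472) and -3.26 in the lesser curvature (0.0376), and missed the threshold in the greater curvature at -3.67 (0.0551). With 3 libraries a side the site calls depended on single libraries. The count of called members fell to 0 in the antrum without normal 3, antrum 1 or antrum 3, to 0 in the greater curvature without normal 3, greater curvature 1 or 3, and to 2 in the lesser curvature without normal 1, normal 3 or any 1 of its own libraries. In the corpus it fell to 0 without normal 1, normal 3, corpus 2 or corpus 3, to 1 without normal 2, antrum 3, greater curvature 1, lesser curvature 2 or lesser curvature 3, and to 2 without antrum 2 or lesser curvature 1. Calls over all genes also fell in the fits that left 0 members called. In the greater curvature they went from 1503 to 1 without normal 3, to 111 without greater curvature 1 and to 19 without greater curvature 3. In the antrum they went from 2380 to 387, 455 and 649 without normal 3, antrum 1 and antrum 3, and in the corpus from 574 to 26, 16, 17 and 0 without normal 1, normal 3, corpus 2 and corpus 3.

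Ret was closest to normal tissue in the greater curvature and Nos1 in the lesser curvature. Ret differed from it by -0.34 in the greater curvature (95% interval -1.83 to 1.14, edgeR adjusted p = 0.737) and by -2.20 in the lesser curvature (adjusted p = 0.0358). Nos1 differed by -0.33 in the lesser curvature (95% interval -1.74 to 1.08, adjusted p = 0.701). It fell by 2.84 in the greater curvature (edgeR adjusted p = 0.0316) and by 2.89 in the corpus (0.0456). In 6 fits per site, each left out 1 library of the compared groups. The Nos1 call was lost in 5 in the greater curvature and in all 6 in the corpus. The Ret call in the lesser curvature was also lost in all 6. The sites themselves were then compared. No member was called in any of the 4 contrasts of 1 site with the other 3 or in the joint test over the sites (edgeR), against 0% of genes in each, or 0.00616% for genes higher in the lesser curvature. At an unadjusted p under 0.05 the antrum gave 0 members, the greater curvature 1 (Ret, 1.43), the lesser curvature 2 (Nos1 and Chat), the corpus 1 (S100b, -1.88) and the joint test 1 (Nos1). Of all tested genes 2.27%, 2.25%, 10.9%, 7.51% and 5.84% were under that p in the same order.

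For Nos1 the log2 difference of the lesser curvature from the other sites was 2.30 (SE 0.49, 95% interval 1.24 to 3.36), with an unadjusted p of 0.0005 and an edgeR adjusted p of 0.233. DESeq2 called Nos1 and no other member in this contrast (2.33, DESeq2 adjusted p = 0.0035) and in the joint test (0.0103). All 3 lesser curvature tumors were above all 9 others, with the lowest at 3.30 CPM and the highest of the others at 2.83. For Chat the difference was 2.09 (SE 0.87, edgeR adjusted p = 0.446), and lesser curvature tumors 2 and 3 held the highest levels of all 12 tumors. Against normal tissue Chat in the lesser curvature differed by 1.86 (adjusted p = 0.228), and the same contrast passed on the log2(TPM + 1) scale without a filter at 0.78 (limma adjusted p = 0.0337). In the count fit Chat had passed the filter through tumors alone. No difference between sites was shown for the other members, with intervals that reach past 1 on the log2 scale in at least 1 direction in every contrast.

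The genes whose levels ran most like the members over the 15 libraries were found by Pearson's r between log2 CPM profiles. The values are descriptions, since all profiles share the 3 normal libraries and the step between them and the tumors. With the mean profile of the 8 members, r was 0.956 for Trnp1, 0.951 for Adam33, 0.946 for Mrgprf, 0.933 for Sntg2, 0.929 for Hcrtr1, 0.926 for Cav3, 0.917 for Chrm2, 0.915 for Pln, 0.914 for Rbpms2 and 0.913 for Flna. Pln and Chrm2 are genes of muscle contraction, and Flna encodes an actin crosslinker abundant in smooth muscle.

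Gene by gene, the nearest profiles differed. Sox10 ran most like Pln (0.964) and Hmcn2 (0.960), Vip like Chrm2 (0.943) and Ctxn3 (0.943), Cartpt like Hspa2 (0.939) and Mmrn1 (0.917), and Hand2 like the smooth muscle gene Smtn (0.958) and the tachykinin gene Tac1 (0.956). Ret ran most like Fbxw9 (0.917) and Dcxr (0.910), S100b like Wnt5b (0.879) and C1qtnf1 (0.861), and Nos1 like Cspg5 (0.845) and Lrrn4cl (0.834). Chat had the weakest match, Strc at 0.825 and Ifi202b at 0.743, both genes with few counts.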

How the data were processed

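Per the submitters' processing notes, reads were demultiplexed with bcl2fastq 2.19 and processed with kallisto 0.44.0 on GRCm38.p6; sleuth and DESeq2 are also named, with no role given. The authors deposited whole-number counts per gene and a second table whose columns each sum to 1000000, read here as TPM from its values although its name gives another unit. No source used here says how kallisto estimates became whole counts. Counts of 15 libraries were fitted together in edgeR 4.0.16 (quasi-likelihood, robust, TMM, R 4.3.3), 1 term per group, after a filter on low counts (minimum count 10; 16224 of 36144 genes left). Log2 changes, standard errors and intervals come from that fit. TPM was tested with limma 3.58.1 on log2(TPM + 1), and DESeq2 1.42.0 was an alternative. Named genes are the 8 members, up to 4 genes with the smallest p in each of 15 further lists, and the nearest profiles; 1 listed gene is not reported here. Members and lists were chosen with earlier results of these data known. The fit was also run on simulated data with the same change at every tumor site and no pairing of libraries. No result here rests on that run. Gene positions are from GENCODE on GRCm38. Floors of 3 counts cover counting error only.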

Additional observations from a re-analysis of the deposited data

How the results depend on the processing

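Over all tumors, Sox10, Nos1, Vip, Cartpt and Hand2 stayed called in all 15 fits that left out 1 library (edgeR, highest adjusted p 0.0125, 0.0477, 0.0289, 0.0165 and 0.00558), and the count of called members was 5 to 6. It was 3 with limma on log2(TPM + 1) and on log2(TPM + 0.1), where Sox10, Nos1 and Chat were not tested because of the filter on low TPM. On the TPM scale the median gene shifted by 0.43 and 0.52 against -0.04 in counts, and calls split into 550 lower and 5749 higher genes against 2548 and 2628, so a TPM difference is relative to that shift. The other lists there had 2 glial, 0 myelinating, 0 GDNF and endothelin, 2 inhibitory and 3 cholinergic genes lower and 4 fibroblast genes higher. By site, leaving out 1 library gave 0 to 4 called members in the antrum, 0 to 4 in the greater curvature, 2 to 5 in the lesser curvature and 0 to 4 in the corpus, and 0 in each contrast between sites. The greater curvature count was 0 with only the compared groups and 5 with DESeq2, where 4 and 3800 of all genes were called. The corpus count was 2 with no filter, 1 with only the compared groups and 2 with log2(TPM + 1) unfiltered. Those fits called 331, 301 and 153 of all genes. DESeq2 gave 1, Nos1, in the lesser curvature against the other sites and 1 among the sites. The cause of these shifts was not tested, beyond fewer samples in some fits.

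Whether the replicate numbers pair the samples was not settled. Of 30 same-numbered pairs, 17 correlated above 0.1 (range -0.566 to 0.693). Own-number libraries were the best match for 10 of 15, a larger share than they made up of the libraries compared. The main fit took no account of the numbers. With the replicate number as a block, 5 members were called over all tumors, Ret being lost (log2 change -1.40, adjusted p = 0.0617), and 3, 4, 5 and 3 by site in the order above. Of all 16224 genes, that fit called 2851 lower over all tumors, and 857, 511, 3160 and 163 by site. Ret was also lost with no filter (adjusted p = 0.0624).

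Signs changed in values that passed the test in none of the fits named here. With single libraries left out, Chat ran from -0.24 to 0.78 over all tumors, -1.51 to 0.10 in the antrum, -0.99 to 0.36 in the greater curvature and -2.25 to 0.38 in the corpus; it was -0.00081 over all tumors with the block, in unfiltered log2(TPM + 1) it was 0.027, 0.21 and 0.060 at those sites, and in the corpus it was 0.30 without the 2 libraries that lay among the normal ones. S100b ran from -1.04 to 0.19 in the antrum and -0.72 to 0.52 in the greater curvature, and was 0.041 in log2(TPM + 1) in the former and -0.72 without those 2 libraries in the latter. Ret in the greater curvature ran from -0.76 to 0.085 and was 0.039 in log2(TPM + 1). Nos1 in the lesser curvature ran from -1.16 to 0.011 and was 0.18 in unfiltered log2(TPM + 1). Prx was 0.15 in log2(TPM + 1) and 0.30 in log2(TPM + 0.1), Gfra2 was 0.021 and 0.0086, and Slc18a3 ran from -0.37 to 0.17.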
